A study of Homo sapiens with 2 samples.

Results

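The 10 genes described here encode the Notch receptors (NOTCH1, NOTCH2, NOTCH3 and NOTCH4), their canonical ligands (JAG1, JAG2, DLL1, DLL3 and DLL4) and HES1, a target gene of the pathway. They were taken from the deposited table by gene symbol, and all 10 stood there on 1 row each, among 56255 gene symbols in all. RNA was sequenced from 2 cultures of A549, a human epithelial cell line established from a lung adenocarcinoma. The MYOCD group was A549 with overexpression of MYOCD, whose product, myocardin, binds SRF and strengthens its activation of muscle genes in heart and smooth muscle. The WT group was A549 labelled as wild type. Both were grown in DMEM with 10% FBS, per the labels. The sources used here do not give the vector, an empty-vector control, or whether the overexpressing cells were a pool or 1 clone. Each group had 1 library, so no value has a replicate error, no p-value is given, and the effect of MYOCD and a difference between 2 cultures or preparations cannot be told apart.

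Notch receptors sit in the plasma membrane and are activated by ligands on neighbouring cells. Ligand binding exposes the receptor to cleavage by ADAM10 or ADAM17 and then by gamma-secretase, and the freed intracellular part enters the nucleus, binds the DNA-binding protein RBPJ and recruits a Mastermind-like coactivator. HES1, a repressor of the basic helix-loop-helix class, is among the genes this complex switches on in many tissues. In the lung, Notch signalling takes part in the choice between secretory and ciliated airway cell fates, and in blood vessels NOTCH3 is the receptor typical of smooth muscle cells and pericytes, while NOTCH4 and the ligand DLL4 are typical of endothelium.

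The bases upstream of 3 gene starts are shown because HES1 is the target gene and because NOTCH3 and JAG1 had the largest differences among members measured above 1 RPKM. They are the 250 bases before the RefSeq start on GRCh38.p14, read 5′ to 3′ on the gene's strand, from chr3:194135898-194136147 (plus strand) for HES1, chr19:15200996-15201245 (minus strand) for NOTCH3 and chr20:10674000-10674249 (minus strand) for JAG1. Capitals in HES1 mark TGGGAA, the core letters bound by RBPJ, and capitals in NOTCH3 mark CACNAG, the N-box letters bound by HES proteins. JAG1 held none of these motifs and has no capitals.
HES1: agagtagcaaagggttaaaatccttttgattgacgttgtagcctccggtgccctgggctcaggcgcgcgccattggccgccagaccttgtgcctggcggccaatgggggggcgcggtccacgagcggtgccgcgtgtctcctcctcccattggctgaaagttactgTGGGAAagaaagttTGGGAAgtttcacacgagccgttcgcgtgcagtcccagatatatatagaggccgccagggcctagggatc
NOTCH3: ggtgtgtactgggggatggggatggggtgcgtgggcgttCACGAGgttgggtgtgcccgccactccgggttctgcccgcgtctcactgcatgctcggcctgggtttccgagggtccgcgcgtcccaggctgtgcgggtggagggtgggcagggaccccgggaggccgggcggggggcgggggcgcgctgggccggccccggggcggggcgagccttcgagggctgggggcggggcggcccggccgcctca
JAG1: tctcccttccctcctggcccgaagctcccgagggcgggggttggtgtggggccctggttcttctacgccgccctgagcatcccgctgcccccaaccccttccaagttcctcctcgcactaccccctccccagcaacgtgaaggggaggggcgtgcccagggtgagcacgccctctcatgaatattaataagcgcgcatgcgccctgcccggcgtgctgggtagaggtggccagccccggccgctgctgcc
The window was matched by symbol for 8 of the 10 members and not for DLL1 and DLL3. Both strands were searched. TGGGAA was found in HES1 alone of the 8, at 84 to 79 and again at 70 to 65 bases before the start, where 20.8% of all 35116 RefSeq windows of the same length hold it. The longer GTGGGAA, which includes the first of these matches, was also in HES1 alone, against 5.43% of all windows. CACNAG was found in HES1 (where it is not marked), NOTCH3 and NOTCH4, against 32.0% of all windows. The CArG box, the site of SRF, was in 0 of the 8 windows and in 1.16% of all windows. A match of letters is a description of the window and not a shown binding site, and a missing match covers only these 250 bases.

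Expression was compared as RPKM, reads scaled to the length of the gene model and to the size of the library, as the authors deposited it. MYOCD itself stood at 48.6 RPKM in MYOCD and 0.304 RPKM in WT, in the direction of the labels. The RPKM summed to 880876 in MYOCD and 886700 in WT, and the median of the genes at 1 RPKM or more was 10.5 in MYOCD and 10.6 in WT. Of the 6 epithelial markers, KRT8 stood at 1059 RPKM in MYOCD and 1523 in WT and KRT18 at 1134 and 1647. KRT7 went the other way, at 1386 RPKM in MYOCD and 996 in WT. CDH1 stood at 35.8 and 35.0, KRT19 at 3.24 and 2.94, and EPCAM at 2.57 and 0.889. Of 9 alveolar type 2 markers, SFTPC and SFTPA2 were listed at 0 in both libraries and 2 reached 1 RPKM, ABCA3 (6.72 RPKM in MYOCD and 5.55 in WT) and NAPSA (1.04 and 0.394). The number of reads per library is unknown.

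Of the 10 genes, 7 reached 1 RPKM in at least 1 library, and NOTCH4, DLL1 and DLL4 did not. In MYOCD the order from the highest was JAG1, NOTCH2, JAG2, HES1, NOTCH3, NOTCH1 and DLL3. In WT it was JAG1, JAG2, NOTCH3, NOTCH2, HES1, NOTCH1 and DLL3. With no replicates, whether neighbours in these orders differ beyond their spread cannot be assessed. The change of each gene was computed as log2((MYOCD + 0.5)/(WT + 0.5)), and a gene was called higher or lower at 2-fold or more on that scale, a rule of size that tests nothing. By this rule 1 of the 7 members, NOTCH3, was lower in MYOCD and 0 were higher. Among all 17350 genes that reached 1 RPKM in a library, 6.35% were lower and 5.42% were higher. Among the 12337 protein-coding genes of these, 3.1% were lower and 3.02% were higher. A count of 1 in 7 does not set the family apart from all genes or from protein-coding genes. The median log2 change of the 7 members was -0.16, and that of all genes was -0.00.

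**Figure D1:**
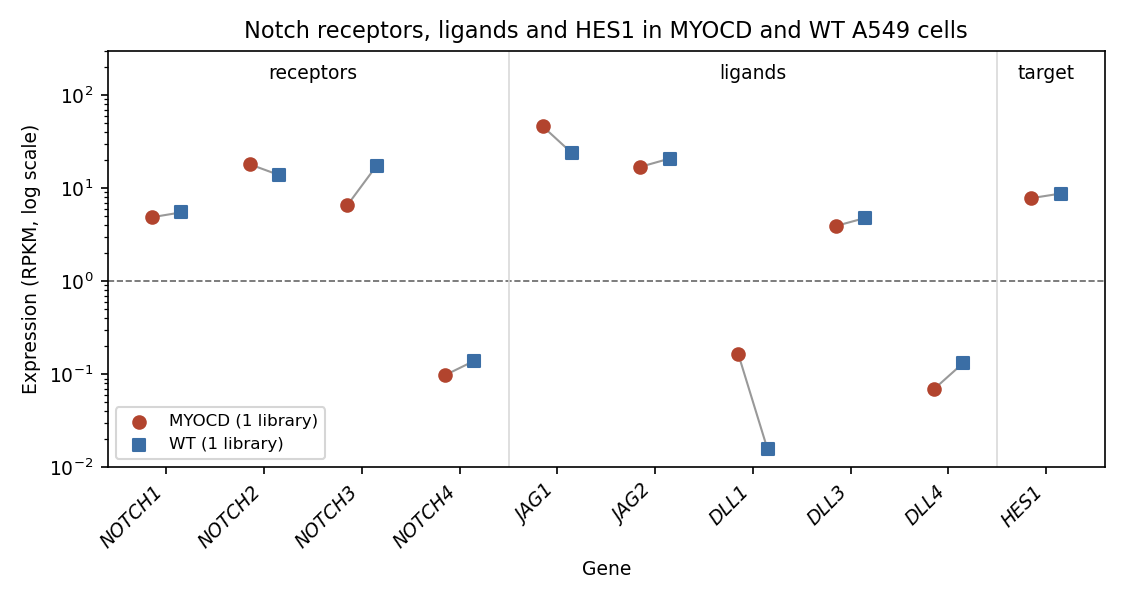
Expression of each gene in RPKM on a log axis, with the MYOCD library as circles left of the WT library as squares, and a line joining the values of 1 gene. The dashed line is the filter of 1 RPKM; NOTCH4, DLL1 and DLL4 lie under it in both libraries, and the WT value of NOTCH3 (17.5) stands above its MYOCD value (6.54).

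NOTCH3 had the largest decrease among the receptors. It stood at 6.54 RPKM in MYOCD and 17.5 RPKM in WT, so the WT value was 2.67 times the MYOCD value, with a log2 change of -1.35. The gene lies at chromosome 19, 15159038 to 15200981, minus strand (GRCh38, GENCODE release 29). Of the 5423 genes with a mean of 5 to 20 RPKM, 3.72% were lower by 2-fold or more and 120 (2.21%) had a log2 change at least as low as that of NOTCH3. No other annotated gene shared exon bases with NOTCH3. Markers of pericytes and vascular smooth muscle, the cells in which NOTCH3 is typical, were not lower as a list. The summed level of these markers was 22.8 RPKM in MYOCD and 18.4 RPKM in WT. The list holds smooth muscle genes, a class whose activation myocardin strengthens. A change in these genes and a change in the share of such cells cannot be told apart here. Of these 10 markers 5 reached 1 RPKM, 1 of them (TAGLN, 6.93 RPKM in MYOCD and 2.34 in WT) was higher by 2-fold and 0 were lower. Of the 5, 4 had a log2 change above 0 and 1, MCAM (1.73 RPKM in MYOCD and 3.31 in WT), below 0. Beside TAGLN, those above 0 were ACTA2 (8.97 RPKM in MYOCD and 8.28 in WT), RGS5 (3.33 and 2.62) and MYH11 (1.24 and 0.830). TAGLN alone differed by more RPKM than the summed level did. Under the filter, PDGFRB, a defining receptor of pericytes, stood at 0.00968 RPKM in MYOCD and 0.432 RPKM in WT. DES was listed at 0 in MYOCD and 0.0678 in WT. LMOD1 stood at 0.139 RPKM in MYOCD and 0.0752 in WT, CNN1 at 0.328 and 0.355, and CSPG4 at 0.0934 and 0.113. No direction is read from values under 1 RPKM. The part of these markers in the NOTCH3 difference was not tested. In cells measured in bulk, fewer cells with a transcript and less of it per cell cannot be told apart.

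NOTCH2, a widely expressed receptor, stood at 18.1 RPKM in MYOCD and 13.9 RPKM in WT, with a log2 change of 0.37, under 2-fold. Its position is chromosome 1, 119911553 to 120069626, minus strand. Its near-identical partial copy NOTCH2NL was listed at 5.81 RPKM in MYOCD and 6.08 RPKM in WT, and the sources used here do not say how reads common to these genes were divided, so the level of NOTCH2 is uncertain to that extent. NOTCH1, at chromosome 9, 136494433 to 136545786, minus strand, is the receptor most often mutated in lymphoid leukaemia. It stood at 4.87 RPKM in MYOCD and 5.49 RPKM in WT, a log2 change of -0.16. NOTCH4, at chromosome 6, 32194843 to 32224067, minus strand, was under the filter, at 0.0979 RPKM in MYOCD and 0.140 RPKM in WT. Its exons share 98 nt on the same strand with GPSM3, at 0.174 RPKM in MYOCD and 0.247 in WT. Of the 10 endothelial markers, the defining genes CDH5, VWF, KDR and TEK were listed at 0 in both libraries. The list reached 1 RPKM with EGFL7 (18.2 RPKM in MYOCD and 23.7 in WT) and with ESAM (3.497 and 1.40), which was higher by 2-fold, and it summed to 22.1 RPKM in MYOCD and 25.8 in WT.

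The order of NOTCH2 and NOTCH3 differed between the libraries. Ratios and shares within a library do not depend on how the libraries were scaled. With 1 library a group, whether the order differs beyond its spread cannot be assessed, and the level of NOTCH2 is uncertain because of NOTCH2NL. NOTCH3 stood at 0.362 times the level of NOTCH2 in MYOCD and at 1.26 times its level in WT. Of the summed receptor RPKM, NOTCH2 made up 61.1% in MYOCD and 37.5% in WT. NOTCH3 made up 22.1% in MYOCD and 47.2% in WT, and NOTCH1 16.5% in MYOCD and 14.9% in WT. The summed level of the 4 receptor genes was 29.6 RPKM in MYOCD and 37.0 RPKM in WT, a ratio of 0.801.

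Among the ligands, JAG1 had the largest gain of a measured member. JAG1, mutated in Alagille syndrome, stood at 46.2 RPKM in MYOCD and 23.7 RPKM in WT, a ratio of 1.94 and a log2 change of 0.94, just under the 2-fold rule. It passed that rule, with a log2 change of 1.03, when 11 steady reference genes were set to a median change of 0. The log2 changes of these 11 genes ran from -0.62 to 0.20, so the shift of 0.09 that they give is small against their own spread. Of the 4490 genes with a mean of 20 to 100 RPKM, 2.96% were higher by 2-fold or more and 146 (3.25%) had a log2 change at least as high as that of JAG1. It was the most abundant of the 10 genes in both libraries. JAG1 lies at chromosome 20, 10637684 to 10673999, minus strand, and 79 nt of its exons are shared with an antisense gene, AL050403.2, that was listed at 0 in both libraries.

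JAG2, the other Jagged ligand, differed little by comparison, at 17.0 RPKM in MYOCD and 20.8 RPKM in WT, a log2 change of -0.29. It lies at chromosome 14, 105140981 to 105168824, minus strand. The transcript gene AL512356.1 shares 469 nt of exon with JAG2 on the same strand and was listed at 2.48 RPKM in MYOCD and 0 in WT, so reads may have been divided between them. Within each library JAG1 stood at 2.72 times the level of JAG2 in MYOCD and at 1.14 times its level in WT. The share of JAG1 in the summed ligand RPKM was 68.6% in MYOCD and 48.0% in WT, and that of JAG2 was 25.2% in MYOCD and 42.1% in WT.

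The Delta-like ligands contributed little RNA. DLL3, a divergent ligand that is held mainly inside the cell and does not activate receptors on neighbours, was the most abundant of them, at 3.93 RPKM in MYOCD and 4.79 RPKM in WT, a log2 change of -0.26. DLL3 lies at chromosome 19, 39498895 to 39508481, plus strand and is known as a surface antigen of neuroendocrine lung tumours. Of the 8 neuroendocrine markers 2 reached 1 RPKM, SYP (1.95 RPKM in MYOCD and 2.17 in WT) and CHGB (1.09 and 1.10). In both libraries 4 were listed at 0, INSM1, GRP and CALCA among them. The list summed to 3.34 RPKM in MYOCD and 3.94 RPKM in WT.

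DLL1 and DLL4, the Delta-like ligands that activate receptors on neighbouring cells, were near the limit of these libraries. DLL4, at chromosome 15, 40929333 to 40939073, plus strand, stood at 0.0688 RPKM in MYOCD and 0.132 RPKM in WT. DLL1, at chromosome 6, 170282206 to 170306565, minus strand, stood at 0.165 RPKM in MYOCD and 0.0156 RPKM in WT. The value of 1 read was put at about 0.0648 RPKM in MYOCD and 0.0570 in WT for a model of 1 kilobase. It was taken from the commonest low value of long gene models, searched within a range set in advance. In a longer model 1 read is worth proportionally less, so the DLL1 values correspond to roughly 8.2 reads in MYOCD and 0.9 in WT. Those of DLL4 correspond to roughly 5.1 reads in MYOCD and 11 in WT, and those of NOTCH4 to 14.7 in MYOCD and 23.9 in WT. Whole reads could not be recovered, so these are estimates, and no direction is read from genes at this level.

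**Figure D2:**
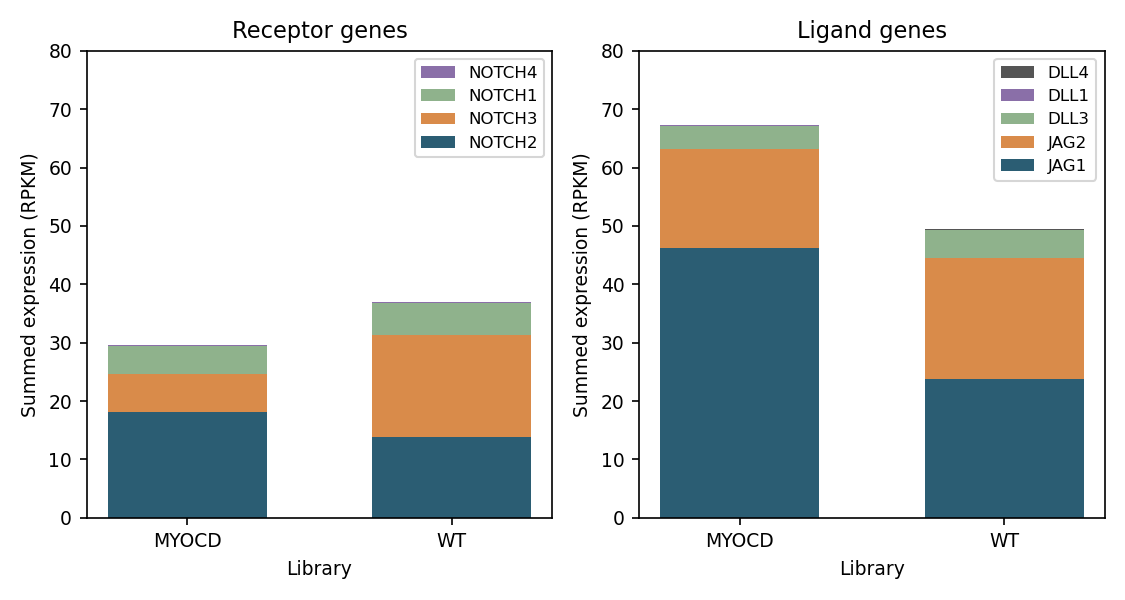
Summed expression in RPKM of the 4 receptor genes (left panel) and of the 5 ligand genes (right panel), as stacked bars from 0 with the MYOCD library left of the WT library. NOTCH2 takes 61.1% of the receptor bar in MYOCD and 37.5% in WT, and JAG1 takes 68.6% of the ligand bar in MYOCD and 48.0% in WT.

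All ligands together summed to 67.3 RPKM in MYOCD and 49.5 RPKM in WT, a ratio of 1.36. The ratio of summed ligand to summed receptor RPKM was 2.27 in MYOCD and 1.34 in WT. Without a second library in either group these ratios have no error.

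HES1, the target gene, stayed close to its WT level. It stood at 7.82 RPKM in MYOCD and 8.76 RPKM in WT, a ratio of 0.893 and a log2 change of -0.15. Its gene lies at chromosome 3, 194136145 to 194138732, plus strand, and the RBPJ core letters shown above lie before its start. In the list of HES, HEY and feedback target genes, HES1 included, 7 of 10 reached 1 RPKM, and 0 of these were higher or lower by 2-fold. HES4 was the most abundant, at 8.93 RPKM in MYOCD and 12.1 RPKM in WT. HEYL, a hairy-related repressor induced by Notch in smooth muscle, stood at 1.10 RPKM in MYOCD and 1.80 RPKM in WT, and NRARP, which encodes a feedback inhibitor, at 2.05 and 1.64. HES5, a classical target in neural tissue, was listed at 0 in both libraries. So were the proneural factor genes NEUROG1, NEUROG2, NEUROG3, ATOH1 and NEUROD1, a class known to be repressed by HES proteins.

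**Figure D3:**
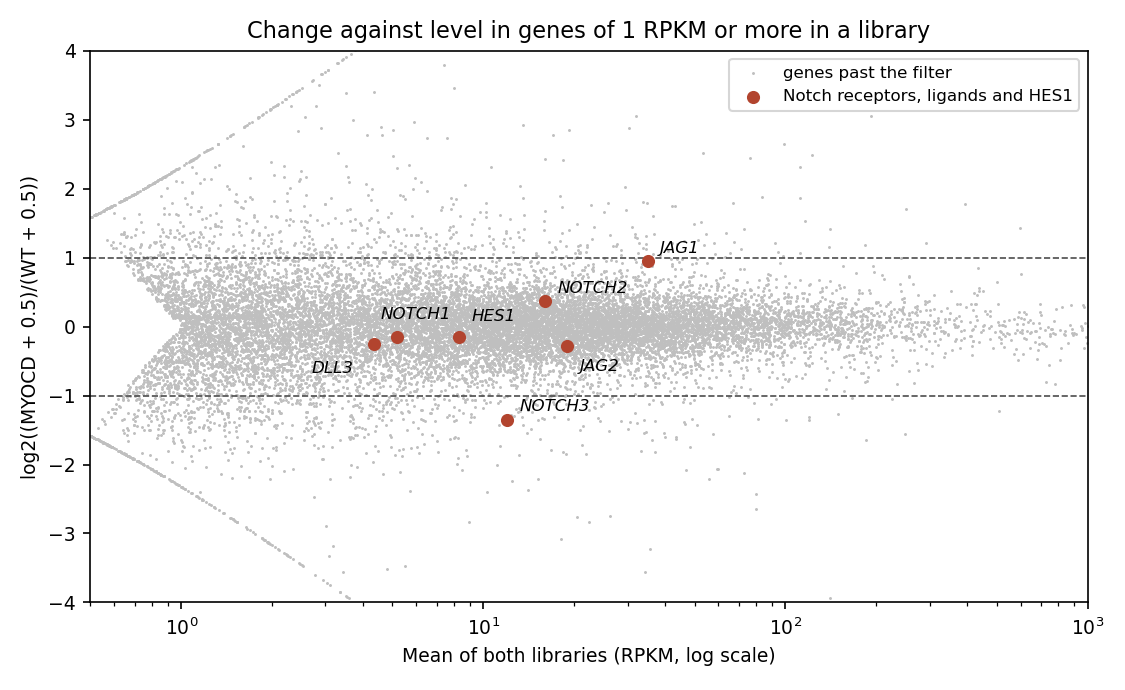
Log2 change (MYOCD over WT, 0.5 RPKM added to both) against the mean of both libraries in RPKM on a log axis, for genes at 1 RPKM or more in a library (grey) and for the 7 measured members (red). The dashed lines mark 2-fold; NOTCH3 (-1.35) lies under the lower one, JAG1 (0.94) just under the upper one, and the curved grey edges are genes listed at 0 in 1 library (427 of the 17350 genes lie outside the axes).

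The rest of the pathway was examined in lists of its other genes. Of 74 such genes 68 reached 1 RPKM in a library, and 4 of these were higher and 1 was lower in MYOCD by 2-fold or more. That is 7.35% of the 68, against 11.8% of all genes and 6.11% of protein-coding genes called in either direction, so the pathway as a whole was not set apart by its count. The median log2 change of the 68 genes was 0.06. Among the higher genes, DNER, MFNG and EPN3 passed the filter only through their MYOCD value.

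The largest decrease among these genes was that of TLE4, a Groucho-type corepressor that HES proteins recruit. It stood at 7.83 RPKM in MYOCD and 28.8 RPKM in WT, a log2 change of -1.81. The processed pseudogene AL353813.1, whose 253 nt all lie within TLE4 exons on the same strand, was listed at 4.20 RPKM in MYOCD and 23.8 RPKM in WT. The relatives of TLE4 lay under 2-fold, with TLE1 at 36.2 RPKM in MYOCD and 42.99 in WT, TLE3 at 22.2 and 17.3, and TLE2 at 4.27 and 4.56. Of the 14 corepressor genes 13 lay under 2-fold.

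In the nuclear activation complex 1 of 9 genes was higher by 2-fold. MAML1, the Mastermind-like coactivator, stood at 20.4 RPKM in MYOCD and 9.45 RPKM in WT, a log2 change of 1.07. Its relatives MAML2 (1.08 RPKM in MYOCD and 0.818 in WT) and MAML3 (6.92 and 7.01) lay under 2-fold. RBPJ itself stood at 17.4 RPKM in MYOCD and 17.6 RPKM in WT, and SNW1, the most abundant gene of the list, at 43.5 and 40.5.

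Among the 11 genes whose enzymes add sugars to the receptors, 1 was higher. MFNG, which encodes Manic Fringe, a glycosyltransferase that alters which ligands a receptor answers, stood at 2.66 RPKM in MYOCD and 0.404 RPKM in WT, a log2 change of 1.81. The other Fringe genes lay under 2-fold, LFNG at 2.78 RPKM in MYOCD and 3.74 in WT and RFNG at 20.5 and 17.4. POFUT1, which adds the fucose that Fringe enzymes extend, was the most abundant of the list, at 34.9 RPKM in MYOCD and 30.2 in WT.

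In the list for uptake of ligand into the sending cell, EPN3, an epsin gene, was higher, at 1.00 RPKM in MYOCD and 0.181 RPKM in WT. It shares 478 nt of exon on the same strand with SPATA20, which stood at 38.0 RPKM in MYOCD and 37.9 in WT, and 119 nt with the antisense gene AC021491.2, at 1.22 RPKM in MYOCD and 0.367 in WT. Since the use of strand is not known, the value of EPN3 is uncertain. The epsin gene EPN2 lay just under 2-fold, at 72.3 RPKM in MYOCD and 38.0 RPKM in WT, a log2 change of 0.92 (1.01 with the steady reference genes set to 0), and EPN1 was the most abundant of the 6 genes past the filter, at 99.5 and 88.5. MIB1, the main ubiquitin ligase of Notch ligands, stood at 12.1 RPKM in MYOCD and 15.01 RPKM in WT. Of the non-canonical ligands DNER was higher, at 1.12 RPKM in MYOCD and 0.140 RPKM in WT, and DLK2 was the most abundant, at 2.24 and 3.23. DNER, MFNG and EPN3 passed the filter only through their MYOCD value, so their counts as higher follow in part from the filter.

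Genes of receptor cleavage and turnover lay under 2-fold on the scale with the pseudocount. All 9 cleavage genes passed the filter, with log2 changes between -0.46 (APH1B, a gamma-secretase subunit) and 0.27 (FURIN, the protease that matures the receptor). ADAM10, which makes the first ligand-dependent cut, was the most abundant, at 155 RPKM in MYOCD and 190 in WT. Of 12 genes of receptor trafficking and turnover 11 passed the filter. NEDD4, a ubiquitin ligase, was the most abundant, at 51.3 RPKM in MYOCD and 55.1 in WT, and the Deltex gene DTX3 had the lowest log2 change, -0.94, at 4.42 RPKM in MYOCD and 8.90 in WT, where the WT value as deposited is 2.02 times the MYOCD value.

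**Figure D4:**
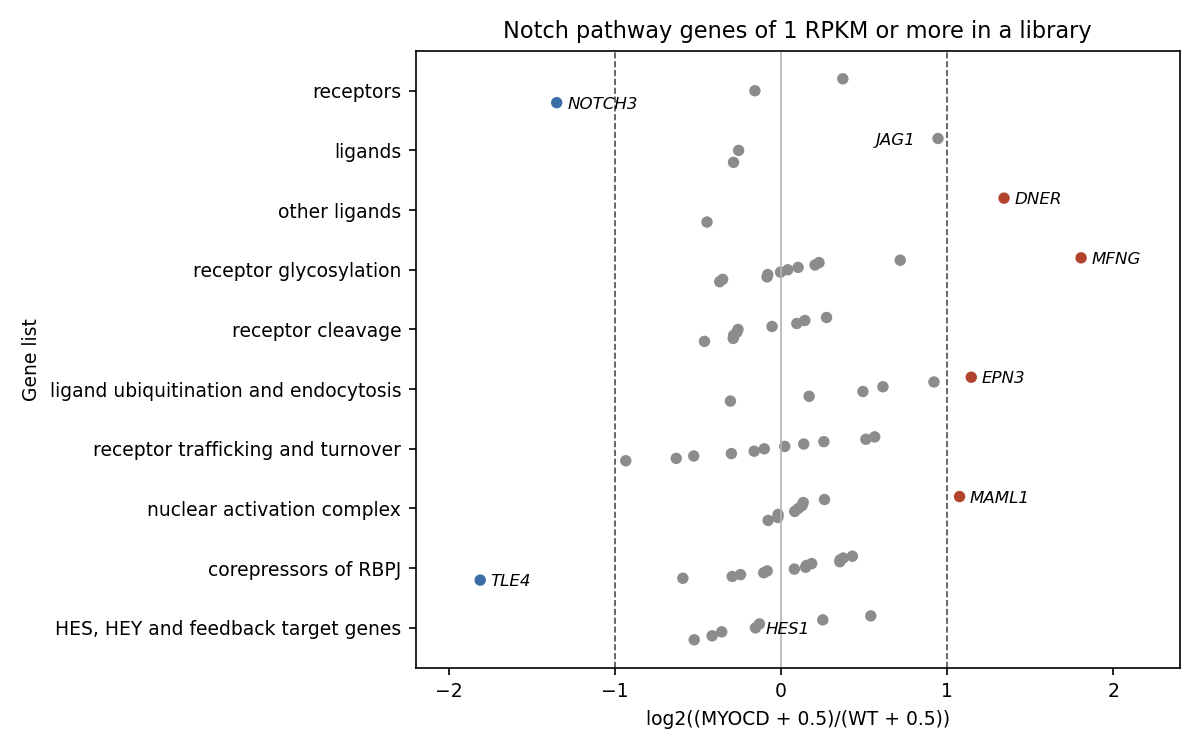
Log2 change (MYOCD over WT, 0.5 RPKM added to both) of each Notch pathway gene at 1 RPKM or more in a library, by list, with 1 point for each gene and red and blue for genes higher and lower by 2-fold or more. The dashed lines mark 2-fold; DNER, MFNG, EPN3 and MAML1 lie beyond the upper one, NOTCH3 and TLE4 beyond the lower one, and HES1 lies near 0.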

How the data were processed

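RNA of 2 A549 libraries, 1 MYOCD and 1 WT, was compared. The authors deposited RPKM, per the file headers, whose key assigns each column to its group. The submitters' processing notes name Bowtie 0.12.2 and the builds mm8 (a mouse assembly) and GRCh38.p12; the sources used here do not give their roles, the counting tool, the annotation or the use of strand. Python 3.11.15 with pandas 2.3.3 and numpy 2.4.6 was used, and figures were drawn with matplotlib 3.10.9. Of 57979 rows, 57375 identifiers were in GENCODE release 29, the source of positions, types and exon lengths; a symbol on several rows (248 symbols) took the row of higher mean RPKM. The log2 change used a pseudocount of 0.5 RPKM, which understates changes of low genes. Genes at 1 RPKM or more in a library were counted, and 2-fold was the rule of size. No test was possible with 1 library a group.

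To look for the value of 1 read, values of 3081 single-transcript models (2000 nt or longer) were multiplied by model length. Low products were divided by the commonest product within a low range set in advance. Within 0.1 of a whole number lay 33.0% in MYOCD and 29.1% in WT, against 20% by chance. Whole reads could thus not be had, depth is unknown and no count test was run. The genes named were all members, MYOCD, the genes of each list at or beyond 2-fold and its most abundant gene (1 is not reported here), and paralogs or overlapping genes; further genes, such as EPN2, DTX3 and relatives of TLE4, MAML1 and MFNG, were chosen after their values were seen. Members and lists were chosen with earlier results of these data known.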

Additional observations from a re-analysis of the deposited data

How the results depend on the processing

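Leaving out a library was not possible, and no paired analysis was possible because each group has 1 library. The pseudocount (0.1 or 1 RPKM), the scaling (equal totals, 11 steady reference genes, a trimmed mean) and the filter were varied. NOTCH3 kept its call under each pseudocount and scaling, with log2 changes of -1.40 to -1.27, as did TLE4 (-1.86 to -1.73), MAML1 (1.04 to 1.16) and MFNG (1.38 to 2.45). No member changed sign under these pseudocounts and scalings. With the steady reference genes at 0, which moves all genes by 0.09, 1 member (JAG1, 1.03) was higher by 2-fold. The log2 changes of these reference genes themselves ran from -0.62 to 0.20. DLL1 passed 2-fold with a pseudocount of 0.1 RPKM (1.20), and DNER (0.90) and EPN3 (0.76) did not with 1 RPKM. The 4 higher pathway genes were then 2; they were also 2 with a mean of at least 1 RPKM, 1 with at least 5 RPKM in a library, and 5 with the steady reference genes at 0, where EPN2 (1.01) joined them. Over all genes, 940 higher and 1102 lower became 450 and 510 with at least 5 RPKM, and 372 and 382 among protein-coding genes, which are fewer genes tested. They were 1208 and 1432 with a pseudocount of 0.1 RPKM, and 741 and 839 with 1 RPKM. Without a filter they were 1222 and 1443. No member and no pathway gene called at 2-fold stood on several rows, so the choice of row could not change them. With depth unknown, counting error could not be given, and values under 1 RPKM carry no direction.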
